A study of Rattus norvegicus with 7 samples.

Results

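The rows described here are those that the deposited table of this rat cardiomyocyte study types as miRNA and that averaged at least 1 RPKM over its 7 libraries. RPKM is a read count scaled by the length of the row and by a size of the library. That size, recovered from the RPKM values, is not the plain number of reads counted. Reads on listed genes came to 85.5% to 109.5% of it, depending on the library. The table held 17141 rows, 241 of them of type miRNA, and 178 of those 241 met the limit. The rows were thus chosen by their mean RPKM, and their levels are a description that carries no test. Ventricular cardiomyocytes of wild-type Wistar rats at postnatal day 0 received 1 synthetic miRNA (25 nM) by lipid transfection, and mRNA libraries were made from the RNA of the cells 72 h afterwards, per the labels. The miRNAs were cel-miR-67, miR-1825, miR-302d-3p, miR-199a-3p, miR-33b*, miR-590-3p and miR-373-3p, with 1 library for each. The cel-miR-67 library served as the reference, because the authors' deposited ratios have it as their denominator. All 7 cultures received a transfection, and the cells were a primary isolate from which the cells that attach early to plastic had been left behind. With 1 library a group there is no replicate spread, so no p-value is given, and every difference is a difference between 2 libraries. Ratios of read rates to the reference library carry an exact 95% interval that covers counting error only.

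A miRNA is made from a long primary transcript, often an intron of a protein-coding gene or a long non-coding RNA. Drosha with Dgcr8 cuts the hairpin out of it, Dicer1 cuts the hairpin to a duplex, and an Argonaute protein keeps the mature strand, whose seed pairs with target mRNAs. In heart muscle the best-known members come from the myosin heavy chain genes (miR-208a and miR-208b) and from the miR-1 and miR-133 clusters. A library made from polyadenylated RNA does not capture the mature strand, so the values are levels of longer RNA read over the hairpin, not of mature miRNA. Of the 178 rows, 73 carry a miRNA name and 105 a clone-type name such as AABR07012582.2, which says nothing of a miRNA. Of the 73, 72 were matched to a miRNA gene of RefSeq (assembly GRCr8), 62 by symbol and 10 by an older name. RefSeq held the hairpin of 64 of them, and the row's length recovered from the RPKM values equalled the hairpin's in 58.

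Hairpins of 4 rows on which the results turn are given first, from RefSeq (GRCr8), 5′ to 3′, with the mature strands in capitals. Mir675 lies in the imprinted H19 transcript and its level differed by library, Mir22 was highest in the reference library, Mir208b lies in the Myh7 gene, and Mir3064 in Ddx5 had the highest mean of the miRNA-named rows.
Mir675: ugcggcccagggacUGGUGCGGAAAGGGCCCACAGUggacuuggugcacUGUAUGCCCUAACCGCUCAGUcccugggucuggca
Mir22: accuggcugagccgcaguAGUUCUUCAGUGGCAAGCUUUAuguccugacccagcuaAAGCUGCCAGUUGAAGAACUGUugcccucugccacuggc
Mir208b: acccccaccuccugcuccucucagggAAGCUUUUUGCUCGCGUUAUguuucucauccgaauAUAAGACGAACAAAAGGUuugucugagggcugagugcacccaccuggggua
Mir3064: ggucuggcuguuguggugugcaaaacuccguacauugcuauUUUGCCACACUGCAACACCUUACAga

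Mature sequences were found for 62 of the rows (99 strands with 87 seeds), and 7 seeds occurred in more than 1 row, covering 16 rows. The strands below show those with the most rows, the let-7 and miR-30 families, and 2 pairs that share a seed, with bases 2 to 8 (the seed) in capitals.
rno-let-7a-5p: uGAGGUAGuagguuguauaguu
rno-let-7c-5p: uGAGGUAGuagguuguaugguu
rno-let-7d-5p: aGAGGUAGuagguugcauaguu
rno-let-7g-5p: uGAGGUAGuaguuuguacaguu
rno-let-7i-5p: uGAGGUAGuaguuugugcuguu
rno-miR-30a-5p: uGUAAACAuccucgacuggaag
rno-miR-30c-5p: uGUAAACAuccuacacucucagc
rno-miR-30e-5p: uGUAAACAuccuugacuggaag
rno-miR-221-3p: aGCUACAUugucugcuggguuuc
rno-miR-222-3p: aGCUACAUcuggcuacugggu
rno-miR-23a-3p: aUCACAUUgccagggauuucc
rno-miR-23b-3p: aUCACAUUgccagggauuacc

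For comparison, the rat forms related to 3 of the transfected miRNAs are shown in the same way. rno-miR-291a-3p belongs to the seed family of both miR-302d-3p and miR-373-3p.
rno-miR-199a-3p: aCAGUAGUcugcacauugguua
rno-miR-291a-3p: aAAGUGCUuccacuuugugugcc
No mature strand of the 62 rows carried either seed. The list of 12 relatives of the transfected miRNAs (miR-199a, miR-590, the miR-302 and miR-290 clusters, miR-33 and their neighbours) matched none of the miRNA-type rows by name. Mir3120, which RefSeq places opposite Mir214 in Dnm3, was present at 2.1 to 5.74 RPKM on 6 to 18 reads.

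The rows were short, 49 to 181 bases (median 97), so a few reads make a high RPKM: 1 read on 100 bases equals 0.288 to 0.446 RPKM, and 3 reads equal 0.864 to 1.34, depending on the library. The median row averaged 4.37 RPKM on 9.64 reads. There were 92 rows under 10 mean reads and 58 with at least 20, and 17 had no read in at least 1 library. All 178 rows together held 0.0402% to 0.0765% of the reads of the listed genes. The 15 highest rows took 61.3% to 77.9% of the reads on all 178. These 15 averaged over 100 RPKM, and 14 of them had a clone-type name. The exception was Mir3064. Reads of 7 pairs of rows were identical in all 7 libraries (Mir503 and rno-mir-503-1, for example), so the 178 rows hold 171 separate read profiles. Near-identical copies can share reads, and values of such rows are uncertain.

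**Figure D1:**
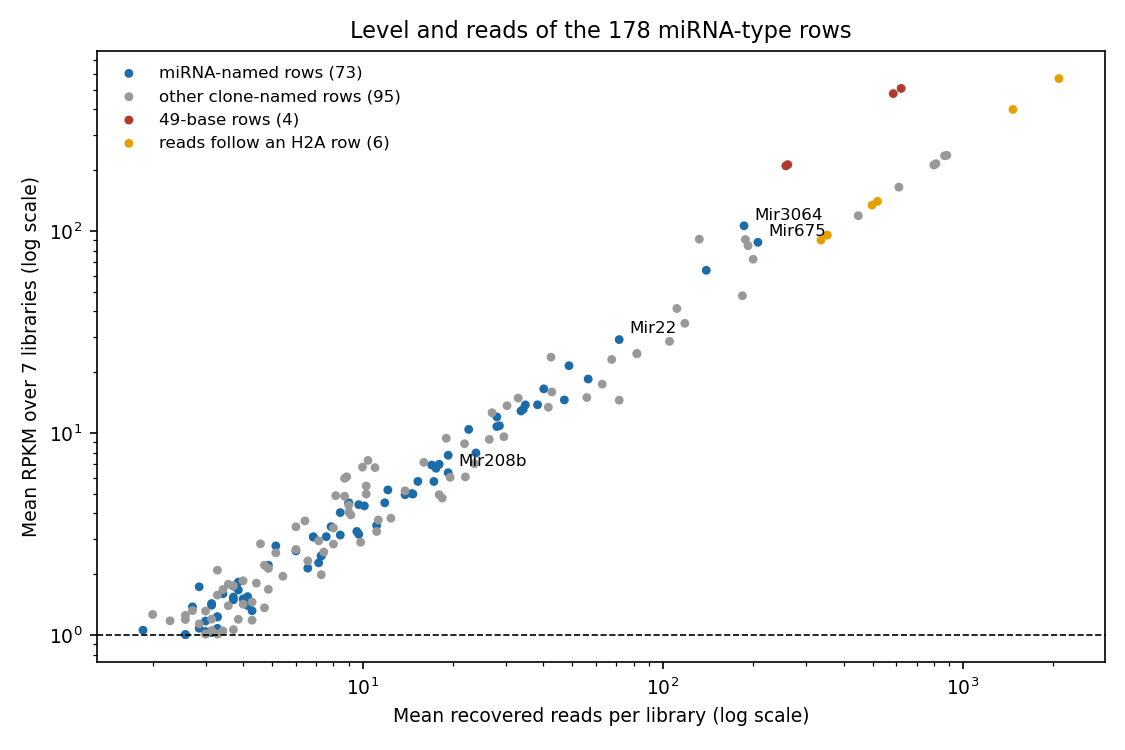
Mean RPKM over the 7 libraries (vertical, log scale) against mean reads per library (horizontal, log scale) of the 178 miRNA-type rows, with the limit of 1 RPKM as a dashed line. Only 17 of the 73 miRNA-named rows reach 20 mean reads, and the 4 highest rows are 2 of 49 bases and 2 whose reads follow an H2A histone gene.

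The reads of several of the highest rows ran with those of histone genes. AABR07012582.2, the row with the highest mean, is 138 bases long and held 1133, 3129, 2350, 2349, 1801, 2682 and 1161 reads in the cel-miR-67, miR-1825, miR-302d-3p, miR-199a-3p, miR-33b*, miR-590-3p and miR-373-3p libraries, the order used wherever 7 read counts are given. The row of Hist2h2aa2 (ENSRNOG00000047898), an H2A histone gene of 393 bases, held 1181, 3268, 2450, 2455, 1860, 2771 and 1241. The miRNA-type row thus stood at 93.6% to 96.8% of the gene's reads in every library. H2A is 1 of the core histones around which DNA is wound, and its replication-dependent genes are made in the S phase of the cell cycle. A search of the 16900 rows of other types for read numbers within 10% in all 7 libraries was run for the 27 members with at least 100 mean reads. It found a row for 9 of them, and for 6 the row was a histone gene, of 46 histone rows in the table. The limit of 10% and the read minimum were chosen after the values had been seen.

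The other 5 pairs lay within similar limits. AABR07012583.2 held 94% to 96.5% of the reads of a second Hist2h2aa2 row (ENSRNOG00000052555), and AC130391.2 held 95.6% to 97.2% of those of Hist1h2ah. AABR07027811.2 held 93.4% to 97.9% of the reads of Hist1h2ao, AC114096.2 97.3% to 99.4% of Hist1h2ak and AC121663.1 94.4% to 107% of Hist1h2af. All 6 genes encode H2A, and the 6 rows are 137 or 138 bases long. A further row, AABR07027752.2 of 139 bases, stood at 98.9% to 102% of the reads of AABR07027752.3, a row typed pseudogene. Genes that are not histones met the limit too. AC099089.1 stood at 91.4% to 111% of Thoc3 and at 95% to 111% of Uggt2, and AC097745.1 at 94% to 105% of Coro7. The range for Coro7 was narrower than that of AC121663.1 and Hist1h2af. In the 7 libraries the 6 rows held 21.6% to 41.9% of the reads on all 178 rows, and the 73 miRNA-named rows 6.56% to 14%. Whether the same reads were counted on both rows of a pair was not tested. The 6 rows are therefore not called miRNA precursors here but are described by their type in the table and their partner. Another 4 clone-named rows of 138 to 141 bases among the 15 with the highest means had no partner within 10%. These were AABR07027811.7, AC105645.3, AABR07072559.1 and AABR07012582.1, with means of 119 to 236 RPKM. The 4 rows of 49 bases described below, also among the 15, had none either. AABR07027811.7 held 425, 1143, 965, 1089, 804, 1045 and 605 reads. The highest of the rows named Hist1h2ac (ENSRNOG00000058437) held 513, 1416, 1142, 1298, 968, 1242 and 765. This lies outside the 10% limit, and the pair is not counted as matched. Other rows named Hist1h2ac held fewer reads, 235 and 158 in cel-miR-67.

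**Figure D2:**
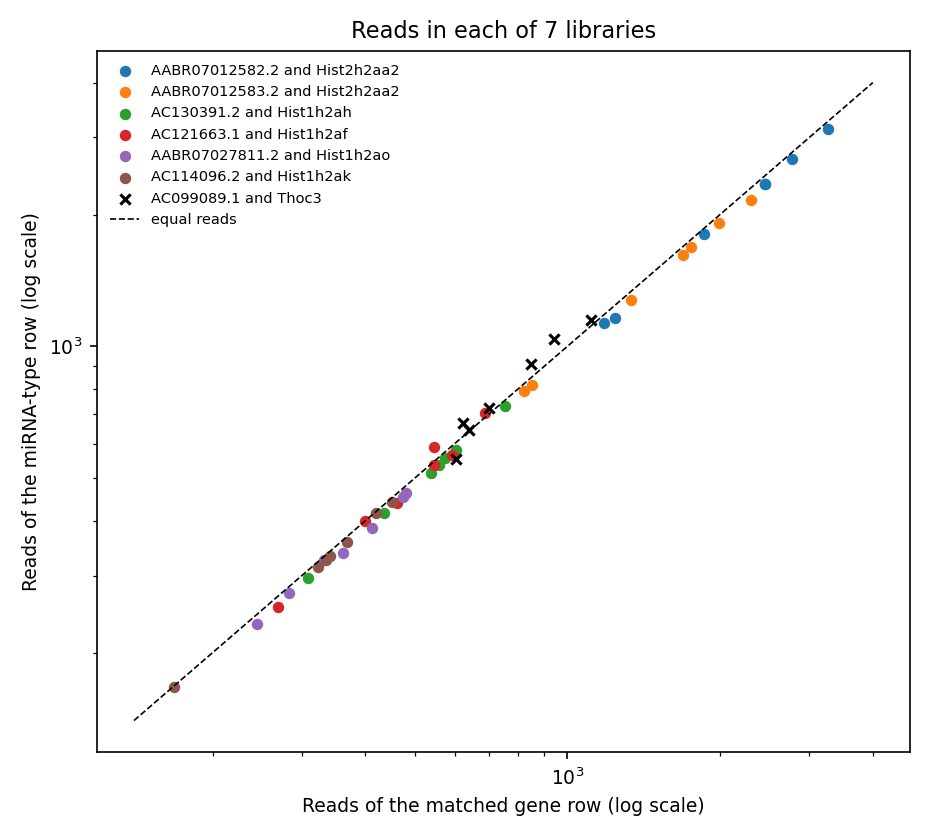
Reads of 7 miRNA-type rows (vertical, log scale) against reads of the matched gene row (horizontal, log scale), 1 point a library. The points of the 6 H2A pairs lie along the line of equal reads, at 93.4% to 107% of the gene's reads, and those of AC099089.1 against Thoc3 scatter to both sides of it.

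In level, AABR07012582.2 stood at 362 RPKM with cel-miR-67, 846 with miR-1825, 491 with miR-302d-3p, 629 with miR-199a-3p, 581 with miR-33b*, 796 with miR-590-3p and 274 with miR-373-3p. Its lowest library was miR-373-3p and its highest miR-1825, where the ratio of read rates to cel-miR-67 was 2.34 (95% interval 2.18 to 2.5). In the miR-373-3p library the ratio was 0.758 (95% interval 0.698 to 0.823), on the other side of 1. AC114096.2, the partner of Hist1h2ak, stood at 53.4 RPKM with cel-miR-67, 87.9 with miR-1825, 87.1 with miR-302d-3p, 118 with miR-199a-3p, 101 with miR-33b*, 98.5 with miR-590-3p and 84.6 with miR-373-3p. It was lowest in cel-miR-67, and its ratio ranged from 1.59 (95% interval 1.32 to 1.92) with miR-373-3p to 2.21 (95% interval 1.85 to 2.66) with miR-199a-3p. The log2 change of Hist1h2ak itself spanned 0.67 to 1.13, and that of the miRNA-type row 0.65 to 1.13. The 15 members of 120 to 150 bases with at least 100 mean reads, a group chosen after its values were seen, had a median log2 change of 1.03 with miR-1825, 0.46 with miR-302d-3p, 0.89 with miR-199a-3p, 0.78 with miR-33b*, 0.93 with miR-590-3p and 0.21 with miR-373-3p. With miR-1825, miR-199a-3p and miR-590-3p, 8, 7 and 5 of the 15 were at least 2-fold higher, against 2.00%, 1.04% and 1.51% of all rows with a mean of at least 1 RPKM. In the other 3 libraries none was, and none of the 15 was 2-fold lower in any of the 6. Since the group was chosen with its values known, nothing is read from these counts.

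The next group was 4 rows of 49 bases, AABR07015042.1, AABR07015055.2, AABR07015079.1 and AABR07015080.1, which were highest in the cel-miR-67 and miR-1825 libraries. AABR07015042.1 stood at 1535 RPKM with cel-miR-67, 1015 with miR-1825, 115 with miR-302d-3p, 409 with miR-199a-3p, 272 with miR-33b*, 125 with miR-590-3p and 88.5 with miR-373-3p. Its ratio to cel-miR-67 was 0.661 (95% interval 0.615 to 0.711) with miR-1825 and 0.0577 (95% interval 0.0480 to 0.0688) with miR-373-3p. AABR07015055.2 followed it, from 1417 RPKM in cel-miR-67 to 66.6 with miR-373-3p. AABR07015079.1 and AABR07015080.1 held almost the same reads as each other in every library (651 and 665 in cel-miR-67, 33 and 34 with miR-373-3p) and ranged over 22 to 586 and 22.6 to 599 RPKM. Of 5 protein-coding rows whose clone numbers lie in the same run, 2 also had most reads in those 2 libraries and fewest with miR-373-3p. AABR07015057.1 (1848 bases) held 3972, 4269, 431, 1444, 1002, 525 and 282 reads and AABR07015081.2 (666 bases) 3792, 5285, 418, 1607, 1182, 641 and 201. The other 3 had few reads and another order: AABR07015055.1 held 0, 9, 2, 2, 5, 1 and 0, AABR07015078.1 held 6, 8, 3, 4, 3, 0 and 6, and AABR07015078.2 held 4, 19, 6, 3, 8, 0 and 2. Over the 7 libraries the genes most like AABR07015042.1 in log2(RPKM + 1) were its 3 companions of 49 bases (Pearson r 0.987 to 0.993), AABR07015057.1 (0.986) and Cog2 (0.976). Cog2 itself ranged only over 6.87 to 8.95 RPKM. Of the 4 members of 57 bases, AABR07015056.1, AABR07015081.1 and AABR07063462.1 also had most reads there, 15 each in cel-miR-67 and 17 to 20 in miR-1825, against 3 or 4 with miR-373-3p. The other, AABR07028970.1, did not: it held 2, 4, 6, 5, 3, 1 and 2 reads, most with miR-302d-3p. The 4 rows of 49 bases held 34.5% of the reads on all 178 rows in the library where their share was highest and 2.54% where it was lowest.

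**Figure D3:**
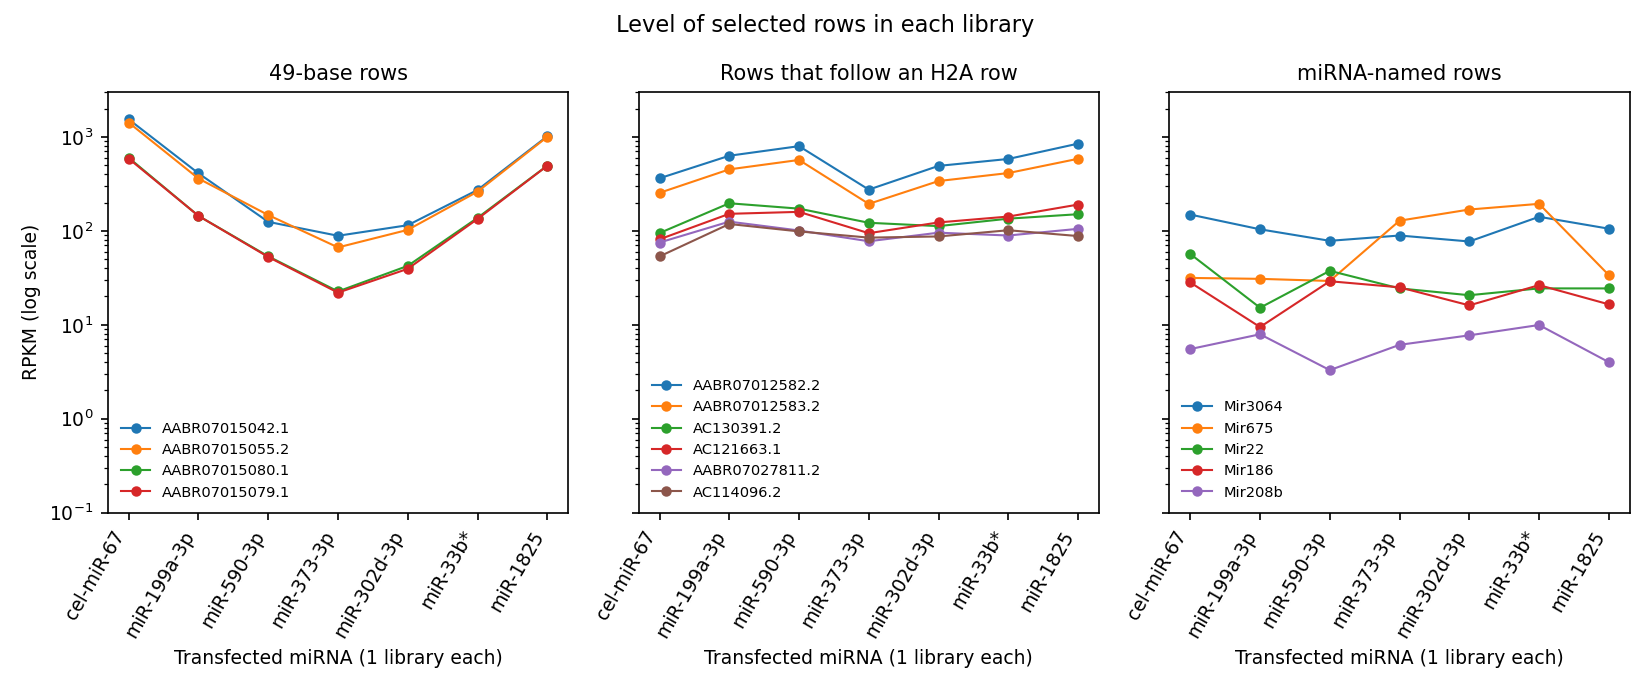
RPKM (log scale) in each of the 7 libraries, 1 point a library, for the 4 rows of 49 bases, the 6 rows that follow an H2A gene and 5 miRNA-named rows; lines join the points of 1 row and imply no order. AABR07015042.1 spans 88.5 to 1535 RPKM, and Mir675 is above 100 RPKM in the miR-33b*, miR-302d-3p and miR-373-3p libraries and at 29.2 to 33.8 RPKM in the other 4.

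A change is given as the log2 ratio of RPKM + 1 to the same sum in the reference library, a scale on which low rows show less than their true ratio. After miR-1825, 20 of the 178 rows (11.2%) were at least 2-fold higher and 19 (10.7%) at least 2-fold lower. Among the 12330 rows of any type that averaged 1 RPKM or more, 2.00% and 1.63% were. With miR-302d-3p the counts were 16 and 29 (8.99% and 16.3%), against 1.31% and 2.11% of all rows. With miR-199a-3p the counts were 19 and 21 (10.7% and 11.8%), against 1.04% and 1.52% of all rows. With miR-33b* the counts were 16 and 21 (8.99% and 11.8%), against 1.30% and 1.24% of all rows. With miR-590-3p the counts were 14 and 15 (7.87% and 8.43%), against 1.51% and 0.762% of all rows. With miR-373-3p the counts were 10 and 23 (5.62% and 12.9%), against 1.15% and 1.87% of all rows. Rows with few reads passed these limits more often whatever their type. Among the 510 rows of any type with under 20 mean reads, 120 of them members, 6.47% to 9.41% were 2-fold higher and 7.25% to 9.22% lower, depending on the library, and among the 293 small nucleolar RNA rows 5.80% to 7.51% and 4.10% to 7.17%. The share of members lay between 5.62% and 16.3%. Of the 29 to 45 members past 2-fold in a library, 15 to 26 had a 95% counting interval of the ratio that left out 1. Of the 58 members with at least 20 mean reads, 9 were 2-fold higher and 3 lower with miR-1825 (background 1.68% and 1.35%), 2 were 2-fold higher and 8 lower with miR-302d-3p (background 1.07% and 1.84%), 9 were 2-fold higher and 6 lower with miR-199a-3p (background 0.770% and 1.19%). The counts were 2 and 6 with miR-33b* (background 0.964% and 0.981%), 7 and 4 with miR-590-3p (background 1.24% and 0.457%), 3 and 5 with miR-373-3p (background 0.922% and 1.57%). In shares of the 58 these are 3.45% to 15.5% higher and 5.17% to 13.8% lower. With miR-1825, miR-199a-3p and miR-590-3p the share higher was larger among the 58 (15.5%, 15.5% and 12.1%) than among all 178. In the other libraries it was smaller, as was the share lower in all 6. The 15 long and the 4 49-base rows described above are among the 58. Long rows made up 8, 7 and 5 of the higher rows with miR-1825, miR-199a-3p and miR-590-3p. All 4 rows of 49 bases were among the lower rows in every library but miR-1825, and were the only ones with miR-590-3p. The counts over the 58 thus rest largely on these 2 groups of rows that ran alike.

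Against cel-miR-67, the median of the miRNA-named rows was under that of the clone-named rows in all 6 libraries, an order that depends on the reference. Over the 73 miRNA-named rows the median log2 change was -0.27 with miR-1825, -0.32 with miR-302d-3p, -0.18 with miR-199a-3p, -0.19 with miR-33b*, -0.27 with miR-590-3p and -0.45 with miR-373-3p. Over the 105 clone-named rows it was 0.20, 0.10, 0.14, 0.27, -0.060 and -0.18 in the same order, and over all 12330 rows -0.0034 to 0.015. Among the 17 miRNA-named rows with at least 20 mean reads, 3, 1, 2, 3, 3 and 1 stood above cel-miR-67. Every comparison uses that 1 library, and 8 of the 17 rows had their highest level in it. With the mean of the remaining 5 libraries as the reference, 8, 6, 9, 11, 9 and 6 of the 17 stood above. With that reference the medians of the 73 and the 105 rows were -0.045 and -0.17 with miR-302d-3p and -0.11 and -0.42 with miR-373-3p, the opposite order, while the miRNA-named median stayed the lower in the other 4 libraries. A property of the single cel-miR-67 culture and an effect of the 6 miRNAs cannot be told apart here. With RPKM rescaled to the reads on listed genes the median of the 73 rows was -0.15, -0.088, 0.065, -0.085, -0.26 and -0.31 in the same order, above 0 with miR-199a-3p, while that of all rows moved to 0.11, 0.23, 0.30, 0.10, 0.011 and 0.17.

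Mir675, an 84-base hairpin within H19, the maternally expressed non-coding RNA beside Igf2, had 2 levels among the libraries. It stood at 31.5 RPKM with cel-miR-67, 33.8 with miR-1825, 168 with miR-302d-3p, 30.8 with miR-199a-3p, 194 with miR-33b*, 29.2 with miR-590-3p and 128 with miR-373-3p, on 60, 76, 491, 70, 365, 60 and 330 reads. Its level was above 100 RPKM with miR-33b*, miR-302d-3p and miR-373-3p, and between 29.2 and 33.8 in the other 4 libraries. The ratio of read rates to cel-miR-67 was 6.15 (95% interval 4.67 to 8.22) with miR-33b*, 4.07 (95% interval 3.08 to 5.45) with miR-373-3p and 5.35 (95% interval 4.08 to 7.11) with miR-302d-3p. It was 0.978 (95% interval 0.683 to 1.4) with miR-199a-3p, 0.928 (95% interval 0.638 to 1.35) with miR-590-3p and 1.07 (95% interval 0.754 to 1.53) with miR-1825, intervals that include 1. With the mean of the remaining 5 libraries as reference, the log2 change moved in every library. It was 1.30 with miR-33b*, 1.01 with miR-302d-3p and 0.49 with miR-373-3p, and under 0 in the rest (-1.68 with miR-1825, -1.81 with miR-199a-3p and -1.89 with miR-590-3p). No row carried the name H19, so Mir675 could not be set beside its host. Igf2, the paternally expressed growth factor gene of the same locus, stood at 2.03 RPKM with cel-miR-67, 1.2 with miR-1825, 2.94 with miR-302d-3p, 1.85 with miR-199a-3p, 3.54 with miR-33b*, 1.8 with miR-590-3p and 3.39 with miR-373-3p. Igf2 was highest in the same 3 libraries. Fewer cells that express a gene and less RNA per cell cannot be told apart in such bulk samples. The genes with the most similar pattern to Mir675 were Rabif, Wdr86, RGD1307155, Tmod2 and Atxn10 (Pearson r 0.980 to 0.993 over 7 libraries). Wdr86 ranged over 0.375 to 2.06 RPKM and Tmod2 over 0.168 to 2.24. Rabif ranged only over 7.64 to 9.62 RPKM, RGD1307155 over 2.57 to 3.35 and Atxn10 over 66.3 to 89.7. The 3 rows compared this way were chosen after their values were seen, and the correlations rest on the same libraries. Of 24 listed names of imprinted loci, Mir675 included, 3 had a row: Mir127 lay under the limit of 1 RPKM, and Mir431 of the Rtl1 locus was a member at 0.327 to 1.62 RPKM.

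Mir22, a miRNA induced in heart muscle growth, stood at 56.6 RPKM with cel-miR-67, 24.4 with miR-1825, 20.6 with miR-302d-3p, 15.2 with miR-199a-3p, 24.4 with miR-33b*, 37.5 with miR-590-3p and 24.4 with miR-373-3p. Its reads were 122, 62, 68, 39, 52, 87 and 71, highest in cel-miR-67 and lowest with miR-199a-3p. The ratio was lowest with miR-199a-3p, 0.268 (95% interval 0.182 to 0.387), and nearest to 1 with miR-590-3p, 0.662 (95% interval 0.497 to 0.879). In the other 4 libraries it lay between 0.364 and 0.431, with upper bounds of at most 0.600. Mir222, which shares its seed and its primary transcript with Mir221, stood at 8.99 RPKM with cel-miR-67, 3.99 with miR-1825, 1.68 with miR-302d-3p, 4.31 with miR-199a-3p, 4.76 with miR-33b*, 4.37 with miR-590-3p and 3.48 with miR-373-3p, on 6 to 21 reads. Mir221 was likewise lowest with miR-302d-3p (2.11 RPKM). Its highest level was with miR-199a-3p (8.48), with 4.86 in cel-miR-67, on 7 to 25 reads a library. Whether the 2 rows differ beyond counting error was not tested. Mir34a, known as a target of p53, rested on 2 to 7 reads a library (0.725 to 3.06 RPKM).

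**Figure D4:**
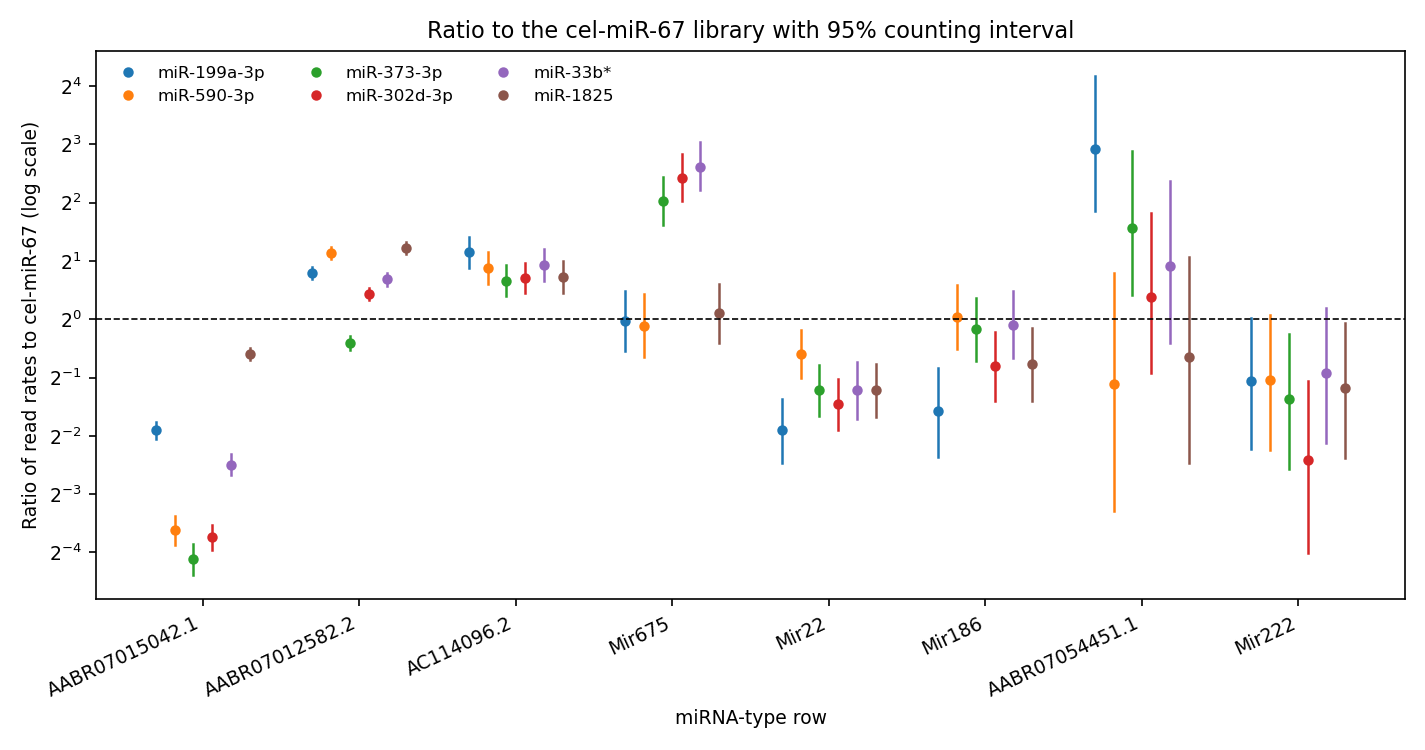
Ratio of the read rate in each miRNA library to that in cel-miR-67 (vertical, log scale, dashed line at 1) for 8 rows, with exact 95% intervals that cover counting error only. The intervals of Mir675 lie above 1 in 3 libraries and include 1 in the other 3, and those of Mir22 lie under 1 in all 6.

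Of 7 muscle-enriched miRNA names, 2 had a row, and both were members. Mir208b, which lies on the same strand in Myh7, the slow beta myosin heavy chain gene, stood at 5.51 RPKM with cel-miR-67, 4.0 with miR-1825, 7.72 with miR-302d-3p, 7.92 with miR-199a-3p, 9.94 with miR-33b*, 3.29 with miR-590-3p and 6.11 with miR-373-3p, on 14, 12, 30, 24, 25, 9 and 21 reads. It was highest with miR-33b*, as was Myh7 itself. The log2 changes of row and gene had the same sign in 5 of the 6 libraries. With miR-199a-3p they parted, at 0.45 for Mir208b and -0.60 for Myh7. Myh7 stood at 1226 RPKM with cel-miR-67, 985 with miR-1825, 1424 with miR-302d-3p, 809 with miR-199a-3p, 1728 with miR-33b*, 926 with miR-590-3p and 1529 with miR-373-3p. The miRNA row thus stood at 0.355% to 0.980% of its host's RPKM. Mir1b rested on 1 to 6 reads a library. Rows opposite other well-known heart miRNAs were also present. Mir3582, opposite Mir133a1 in Mib1, stood at 10.1 to 19.7 RPKM on 29 to 73 reads, and Mir3571, opposite Mir1 in the same gene, at 2.69 to 7.75 RPKM on 8 to 23. Mir3546, opposite Mir208a in Myh6 (the alpha myosin heavy chain gene), rested on 2 to 6 reads, although Myh6 averaged 1028 RPKM. The strand setting of the authors' counting is not given in the sources used here, so a row and the miRNA opposite it cannot be told apart. RefSeq places 10 of the members opposite another miRNA gene.

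Members with at least 20 mean reads and an overlapping protein-coding gene in the table were 7 pairs. Mir3064 lies on the same strand in Ddx5, an RNA helicase of the Drosha complex, and stood at 149 RPKM with cel-miR-67, 105 with miR-1825, 77 with miR-302d-3p, 104 with miR-199a-3p, 141 with miR-33b*, 78.2 with miR-590-3p and 89.1 with miR-373-3p. Ddx5 stood at 211 RPKM with cel-miR-67, 218 with miR-1825, 176 with miR-302d-3p, 199.7 with miR-199a-3p, 210.3 with miR-33b*, 170.3 with miR-590-3p and 171 with miR-373-3p. The row held 43.8% to 70.5% of its host's RPKM, and its log2 change ranged over -0.94 to -0.077 against -0.31 to 0.046 for Ddx5. Mir186 in Zranb2, a splicing factor gene, stood at 28.2 RPKM with cel-miR-67, 16.5 with miR-1825, 16.1 with miR-302d-3p, 9.46 with miR-199a-3p, 26.4 with miR-33b*, 29 with miR-590-3p and 25 with miR-373-3p. After miR-199a-3p its ratio was 0.335 (95% interval 0.195 to 0.559), while Zranb2 changed by -0.061 on the log2 scale there and over -0.061 to 0.13 in all 6. Row and host were both at their lowest in that library, but the host stood at 48.9 RPKM, near its 51.1 in cel-miR-67. Mir3074, opposite Mir24-1 within Fancc, was lowest with miR-302d-3p at 8.13 RPKM against 28.6 in cel-miR-67, a ratio of 0.284 (95% interval 0.183 to 0.432). Fancc, a DNA repair gene, had a log2 change of 0.45 in that library, but Mir3074 stood at 204% to 1079% of its RPKM. Mir27b and Mir23b of the same cluster were lowest there too, at 6.83 and 3.86 RPKM against 20.0 and 9.09, and Mir27b's ratio was 0.341 (95% interval 0.197 to 0.578). RefSeq places Aopep on the same strand as Mir27b and Mir23b and opposite Mir3074. Aopep was not compared with these rows. For the remaining 4 pairs the log2 changes of row and gene were -0.52 to 0.023 for Mir1896 and -0.40 to -0.22 for Zscan26, -0.80 to 0.10 for Mir3582 and -0.25 to 0.14 for Mib1, -0.78 to 0.071 for Mir6328 and -0.13 to 0.27 for Ppp1r18, and -0.74 to -0.14 for Mir3557 and -0.48 to -0.15 for Ppargc1b. Mir1896, Mir6328 and Mir3557 lie opposite their gene in RefSeq. Mir1896 stood at 392% to 507% of the RPKM of Zscan26, a zinc finger gene.

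**Figure D5:**
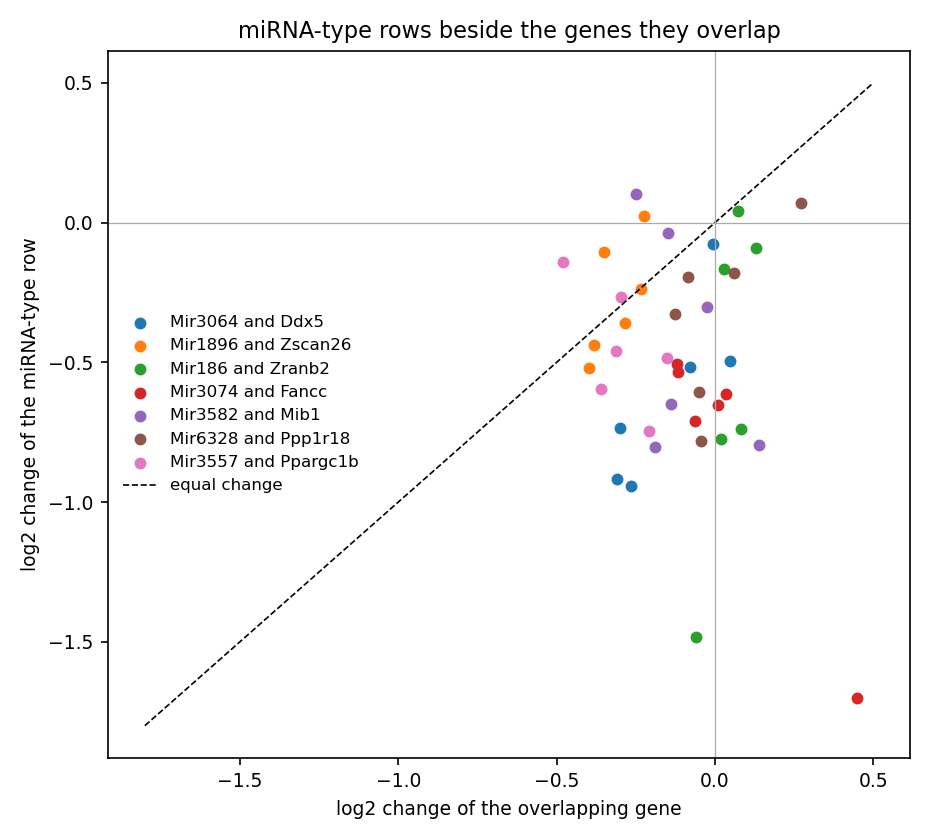
log2 change against cel-miR-67 of 7 miRNA-type rows with at least 20 mean reads (vertical) and of the protein-coding gene each overlaps (horizontal), 1 point for each of 6 libraries. Most points lie under the line of equal change, with Mir186 at -1.48 with miR-199a-3p and Mir3074 at -1.70 with miR-302d-3p lowest.

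Lower rows within genes rested on fewer reads. Mir568, in the gene of the transcription factor Zbtb20, stood at 14.2 RPKM with cel-miR-67, 5.83 with miR-1825, 3.0 with miR-302d-3p, 10.4 with miR-199a-3p, 4.64 with miR-33b*, 8.1 with miR-590-3p and 2.38 with miR-373-3p, on 31, 15, 10, 27, 10, 19 and 7 reads. Both were lowest in the same 2 libraries: with miR-302d-3p the log2 change was -1.07 for Zbtb20 and -1.93 for Mir568, and with miR-373-3p -1.02 and -2.17. Mir490, in Chrm2, the heart's muscarinic receptor gene, rested on 2 to 6 reads. Its host was lowest with miR-302d-3p (-1.16), as was the row (-1.30). Mir301a, in Ska2, a gene of chromosome segregation, was highest with miR-590-3p and miR-33b* at 9.83 and 9.8 RPKM, against 4.85 in cel-miR-67. Ska2 was highest with miR-1825, so the orders differed. Mir30e in Nfyc varied little, 7.19 to 8.44 RPKM on 15 to 25 reads. Mir25 in Mcm7, a DNA replication gene, was the 1 member of the miR-17-92 family list (8 names, 4 with a row), at 1.95 to 5.25 RPKM.

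Of the let-7 family, 5 rows were members. Mirlet7a1 stood at 19.4 RPKM with cel-miR-67, 8.96 with miR-1825, 10.9 with miR-302d-3p, 13.7 with miR-199a-3p, 16.9 with miR-33b*, 10.2 with miR-590-3p and 9.78 with miR-373-3p. Its ratio was 0.528 (95% interval 0.309 to 0.881) with miR-590-3p, 0.504 (95% interval 0.306 to 0.820) with miR-373-3p and 0.462 (95% interval 0.268 to 0.776) with miR-1825. Mirlet7d, in the same RefSeq long non-coding RNA, had its highest level with miR-1825 (16.4 RPKM) and its lowest with miR-199a-3p (7.54), on 19 to 43 reads. The 2 rows of 1 transcript thus differed in their highest and lowest libraries. Mirlet7g had 16, 7, 6, 1, 4, 13 and 6 reads and stood at 0.381 RPKM with miR-199a-3p against 7.27 in cel-miR-67, a ratio of 0.0524 (95% interval 0.00125 to 0.337). Mirlet7i had 12, 17, 7, 14, 7, 11 and 3 reads, lowest with miR-373-3p, and Mirlet7c-1 had 4, 14, 16, 7, 10, 9 and 7, lowest in cel-miR-67. The mature strands of the 5 rows share 1 seed, and their orders of libraries differed as counted. On reads as few as those of Mirlet7g, Mirlet7i and Mirlet7c-1, a common order can be neither shown nor excluded. Mir143 and Mir145, a pair known from smooth muscle and placed by RefSeq in the non-coding Carmn gene, stood at 8.89 to 22.2 and 6.79 to 16.2 RPKM. Both were lowest with miR-1825, with ratios of 0.543 (95% interval 0.315 to 0.919) and 0.467 (95% interval 0.237 to 0.889). The summed RPKM of 5 smooth muscle markers was 751 in cel-miR-67 and 1048 with miR-1825, and its part in these values was not tested. Mir21, a miRNA of fibroblasts and wound repair, was instead highest with miR-1825, at 26 RPKM against 15.8 in cel-miR-67, a ratio of 1.64 (95% interval 1.06 to 2.58). The summed RPKM of 6 fibroblast markers was 489 in cel-miR-67 and 322 with miR-1825. Vmp1, listed as the host of Mir21 although RefSeq gave no overlapping gene, was also highest with miR-1825, at 53.9 RPKM against 44.0. The part of either in the level of Mir21 was not tested.

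Among clone-named rows outside the groups above, AABR07054451.1 (90 bases) had the highest change with miR-199a-3p among members with at least 20 reads in the 2 libraries together. It stood at 3.92 RPKM with cel-miR-67, 2.49 with miR-1825, 5.12 with miR-302d-3p, 29.6 with miR-199a-3p, 7.43 with miR-33b*, 1.82 with miR-590-3p and 11.6 with miR-373-3p, on 8, 6, 16, 72, 15, 4 and 32 reads. The ratio with miR-199a-3p was 7.54 (95% interval 3.63 to 18.1), and that with miR-373-3p 2.96 (95% interval 1.33 to 7.43). In the other 4 libraries the interval included 1. AABR07062708.1 (101 bases) stood at 3.93 RPKM with cel-miR-67, 7.76 with miR-1825, 15.7 with miR-302d-3p, 4.03 with miR-199a-3p, 10.6 with miR-33b*, 10.1 with miR-590-3p and 12.9 with miR-373-3p, and its highest ratio, with miR-302d-3p, was 3.99 (95% interval 1.96 to 9.19). AABR07070357.1 was highest with miR-1825 and miR-33b* (14.5 and 13.9 RPKM against 4.58). AABR07006860.1 stood at 1.93 to 7.82 RPKM, lowest in cel-miR-67 on 6 reads. AABR07029217.1 was highest in cel-miR-67 (34.9 RPKM) and lowest with miR-1825 at 13.9, a ratio of 0.399 (95% interval 0.238 to 0.654). AC130391.5 went from 16 RPKM in cel-miR-67 to 38.6 with miR-199a-3p. Mir6318 of the Elmo3 locus reached 6.34 RPKM with miR-302d-3p, from 3 reads in cel-miR-67.

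At least 1.5-fold in 1 direction in all 6 libraries was met by 5 members on the higher side (2.81%, against 0.584% of all rows) and 4 on the lower side (2.25%, against 0.211%). Among rows under 20 mean reads the backgrounds were 2.16% and 0.784%. Since 1 reference library enters every comparison, a low or high value there alone can meet the limit. Only AC114096.2 on the higher side and AABR07015042.1 on the lower side had 20 or more mean reads. The other higher rows were AABR07052587.4, with 2 reads in cel-miR-67 and 5 to 16 elsewhere, and AC120692.1, AABR07033229.1 and AABR07052890.1, which had no read in cel-miR-67 and at most 12, 7 and 6 reads elsewhere. No fold is given for these 3. The other lower rows were Mir222, AC095852.4 (11, 1, 3, 6, 6, 4 and 7 reads) and AC116071.1 (6, 3, 4, 4, 2, 3 and 2 reads).

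The limit of 1 RPKM fell among rows of 2 to 3 mean reads. Just inside it were Mir322 and rno-mir-322-1 (1.0 RPKM, with identical reads) and the pair AC130253.1 and AABR07024291.1 (1.01). Just outside were Mir450a (0.997), Mir98 (0.969) and Mir106b (0.936).

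The genes that make and use miRNAs were listed apart: Drosha and Dgcr8, Xpo5 and Ran of nuclear export, Dicer1 with Tarbp2 and Prkra, Ago1 to Ago4 and Tnrc6a to Tnrc6c. None of the 14 was 2-fold higher or lower in any of the 6 libraries. Among all 12330 rows 1.04% to 2.00% were higher and 0.762% to 2.11% lower, so nothing is read from this count. Their median log2 change was -0.035 to 0.19 over the libraries. Prkra, a partner of Dicer1, was the highest of them with miR-33b*, miR-302d-3p and miR-373-3p, at 0.83, 0.79 and 0.64. It also stood above cel-miR-67 with miR-1825, miR-199a-3p and miR-590-3p, at 0.29, 0.27 and 0.38.

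The libraries rested on 22616067 to 31963293 reads on listed genes. All 8 cardiomyocyte markers were above 1 RPKM on average, with a summed level of 10832 to 14629 RPKM. The sums were 321 to 489 for 6 fibroblast markers, highest in cel-miR-67, 751 to 1165 for 5 smooth muscle markers, lowest in cel-miR-67, 5.2 to 7.94 for 5 endothelial markers and 6.74 to 12.5 for 4 leukocyte markers. The part of these other cells in the values of single miRNA rows was not tested. Of 8 miRNA names known from endothelial cells, leukocytes and red cells, Mir150 alone matched a miRNA-type row, and it lay under the limit. Both smooth muscle names, 1 of 2 fibroblast names, 2 of 3 names of growth arrest and hypoxia and 12 rows of 21 other names known from introns were members.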

How the data were processed

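The authors deposited RPKM values for 17141 rows in each of 7 libraries; per the submitters' processing notes STAR 2.7, edgeR and the build Rnor_6.0 were used, in roles that are not given. The annotation, counter and strand setting were not given in the sources used here. Values in the table and in the 7 sample files were the same. Whole reads and row lengths were recovered from the RPKM steps (100% of rows, within 0.002 reads, rising to 0.05 for rows with many reads) and checked on simulated data. Changes are log2((RPKM + 1)/(cel-miR-67 RPKM + 1)). Intervals are exact Clopper-Pearson 95% intervals of ratios of recovered read rates, without a pseudocount, and cover counting error only. A read rate is the reads over the library size behind the RPKM, not over the reads on listed genes. Reads on listed genes were 109.5% of that size in cel-miR-67 and 85.5% with miR-199a-3p. How the size was set is not given in the sources used here. Overlapping genes and sequences came from RefSeq (GRCr8), without coordinates, since the builds differ.

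The text names the 15 rows with the highest mean; for each miRNA the 3 highest and 3 lowest changes among rows with at least 20 reads in the 2 libraries together; rows at least 1.5-fold apart in 1 direction in all 6; rows of lists of miRNAs by tissue or locus, with host genes; and rows at the limit. The members and lists were chosen with earlier results of these data known. The 57-base rows, the clone-number neighbours and the row pairs within 10% in reads were chosen after their values were seen. No test was run, since each group holds 1 library. Alternatives tried are given in the closing section. Python 3.11.15, numpy 2.4.6, pandas 2.3.3, scipy 1.17.1, matplotlib 3.10.9 were used.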

Additional observations from a re-analysis of the deposited data

How the results depend on the processing

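No paired analysis was possible because each group holds 1 library, and for the same reason no library could be left out of a group. The counts of members past 2-fold moved with the treatment of low rows, and 120 of the 178 members rest on under 20 mean reads. The 95% counting interval of the ratio held 1 for 133 to 147 of the 178 in a library. Counts are in the order miR-1825, miR-302d-3p, miR-199a-3p, miR-33b*, miR-590-3p and miR-373-3p (library order) where no name is given, and those not listed stayed within 1.5 times the count reported. The cause was not tested. With a pseudocount of 0.1, higher members numbered 26 with miR-302d-3p, 27 with miR-33b*, 24 with miR-590-3p and 20 with miR-373-3p and lower members numbered 30 with miR-1825, 35 with miR-590-3p and 37 with miR-373-3p. With a pseudocount of 5, higher members numbered 8, 2, 9, 1, 6 and 2 in library order and lower members numbered 2, 12, 7, 8, 4 and 9 in library order. With a mean of at least 5 RPKM, higher members numbered 10, 2, 10, 3, 8 and 3 in library order and lower members numbered 4, 13, 9, 10, 4 and 11 in library order. With at least 10 mean reads, higher members numbered 11, 2, 11, 5, 8 and 3 in library order and lower members numbered 5, 14, 7, 8, 4 and 11 in library order. With no filter on the mean, lower members numbered 23 after miR-590-3p. With RPKM rescaled to the reads on listed genes, higher members numbered 29 after miR-199a-3p and the median log2 change was 0.19 with miR-1825, 0.14 with miR-302d-3p and 0.25 with miR-199a-3p. That scaling moves the median of all 12330 rows to 0.11, 0.23, 0.30, 0.10, 0.011 and 0.17 in library order. With the mean of the other 5 miRNA libraries as the reference, higher members numbered 9, 3, 3, 6, 2 and 0 in library order, lower members numbered 8 with miR-1825, 13 with miR-302d-3p and 1 with miR-33b* and the median log2 change was 0.081 after miR-199a-3p. Leaving out the 6 rows matched to a histone gene and the 4 rows of 49 bases, or counting rows with identical reads once (both chosen after seeing the data), moved no count over the 178 by over 1.5 times and no median out of its interval. Neither was tried on the 58 rows with at least 20 mean reads. Of 342 log2 changes of 57 named rows, none past 2-fold turned its sign under either pseudocount or the rescaling, while 14 did with the mean of the other 5 libraries as the reference: AABR07015042.1 to 0.34 with miR-199a-3p, AABR07015055.2 to 0.19 with miR-199a-3p, AABR07062708.1 to -0.0078 with miR-590-3p, Mir222 to 0.079 with miR-1825, AABR07052587.4 to -0.15 with miR-373-3p and -0.19 with miR-302d-3p, AC120692.1 to -1.33 with miR-302d-3p and -0.58 with miR-33b*, Mirlet7g to 0.16 with miR-1825, AABR07033229.1 to -0.064 with miR-590-3p, -0.31 with miR-373-3p and -0.0014 with miR-302d-3p, Mir30c2 to 0.061 with miR-1825, Mir23a to 0.34 with miR-1825.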
